A study of Mus musculus with 2 samples.

Results

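The apolipoprotein genes described here were Apoa1, Apoa2, Apoa4, Apob, Apoc1, Apoc3, Apod, Apoe, Apoh and Apom. They are 10 of 55536 annotated genes and were chosen by name, not by their values. They were read in 2 total RNA-seq libraries of the adrenal gland, both from 25-day-old female B6CASTF1/J mice, an F1 hybrid with a CAST parent. There was 1 group, with no treatment and no second genotype, and the libraries are named replicate 1 and replicate 2 after the labels. Each library was made from 300 ng of RNA with a directional kit and ERCC spike-ins, which are synthetic RNAs added in a set mixture. The labels number the libraries as biological replicates 1 and 2, each with technical replicate number 1. Biosample text in the labels names separate females, while the library text and the donor field are identical for both. The labels therefore do not settle whether there was 1 animal or 2, and the spread between the libraries may be technical. No liver library was analysed here, so the origin of a transcript was not measured.

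Apolipoproteins are the protein components of lipoproteins, the particles that carry cholesterol and triglyceride in blood. Hepatocytes secrete most of them into plasma, and enterocytes make some of them, while Apoe is also made by many other cells, including macrophages and steroid-producing cells of the adrenal cortex. The cortex takes up lipoprotein cholesterol as raw material for steroid hormones, in large part through the receptor Scarb1.

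The libraries differed in size and in the kinds of RNA they held. The total expected count, an estimate of reads per gene that need not be whole, was 19366343 in replicate 1 and 33728646 in replicate 2. Nuclear protein-coding genes took 36.4% and 66.1% of these totals. Levels are therefore given as coding TPM, which is TPM rescaled to sum to 1000000 over protein-coding genes of the nucleus, with Lars2 left out. Ratios between libraries were taken from counts scaled by edgeR's TMM factors, under which the median log2 ratio was 0.03 over the 11542 genes whose counts averaged 100 or more, called tested below. Genes of the adrenal cortex list (11 of 11) and of the adrenal medulla list (8 of 8) were at 1 TPM or more in both libraries, as the tissue label says. With 1 group there was no test between conditions. Each ratio is given with a 95% interval that covers counting error only, and a gene is called apart where the libraries differ at least 2-fold.

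The family fell into genes found at a similar level in both libraries and genes found mainly in replicate 1. Apoc1 and Apoe were abundant in both. Apoa1, Apoa2, Apob, Apoc3 and Apoh were at 1 TPM or more in replicate 1 only. Apod passed 1 TPM in replicate 2 only, and Apoa4 and Apom in neither. Of 8 members at 1 TPM or more in either library, 5 were in replicate 1 only, beside 1.72% of the 14237 genes at that level in either library. That count depends on the scale. In replicate 2 Apoa2 and Apoc3 were at 2.04 and 2.16 coding TPM, and at 1.43 and 2.19 TPM in a second quantification. Apoc1 and Apoe together made up 88.7% of the family's summed coding TPM in replicate 1 and 99.4% in replicate 2. The sum itself was 2845 coding TPM in replicate 1 and 1943 in replicate 2.

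**Figure D1:**
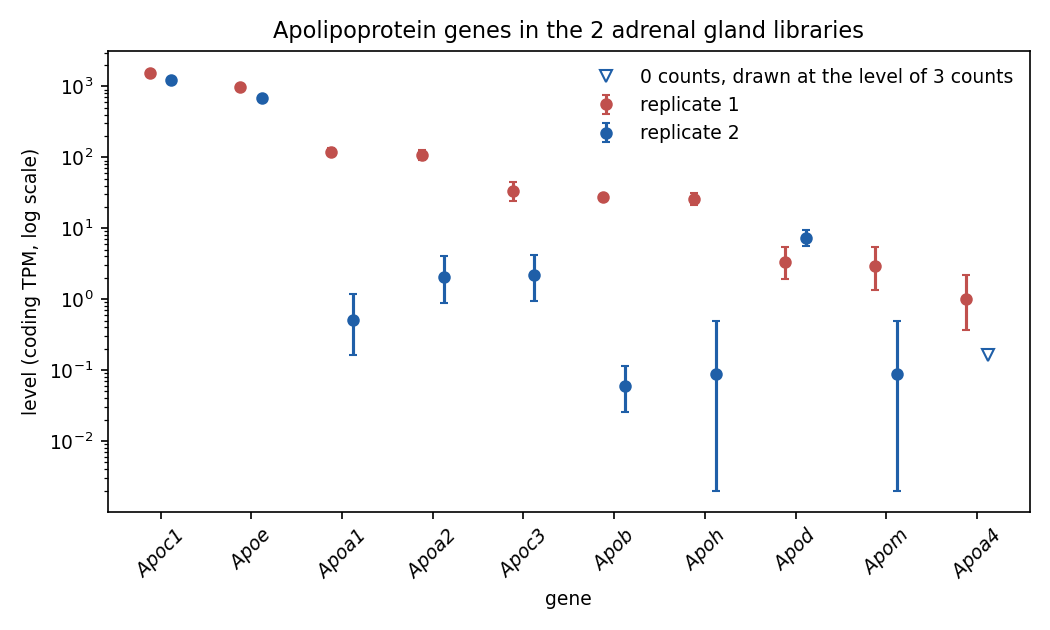
Level of each apolipoprotein gene in coding TPM (log axis) in replicate 1 and replicate 2, with bars for the 95% counting interval and an open triangle where the count was 0. Apoc1 and Apoe lie at 695 to 1537 in both libraries, while Apoa1 lies at 121 in replicate 1 and 0.503 in replicate 2.

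Apoc1, a small exchangeable apolipoprotein of very-low-density and high-density lipoproteins, had the highest level of the family. Its counts were 1745 in replicate 1 and 4405 in replicate 2, which is 1537 and 1235 coding TPM (mean 1386 ± 214, SD, n = 2). It ranked 50 among 22014 coding genes by mean coding TPM. Apoe, the ligand through which remnant particles bind their receptors, had counts of 3199 and 7694. That is 986 and 695 coding TPM (mean 841 ± 206, SD, n = 2), and its rank was 122. Both genes were somewhat higher in replicate 1. After scaling, Apoc1 was 1.27-fold higher there (95% interval 1.20 to 1.35) and Apoe 1.34-fold higher (1.28 to 1.39). These differences exceed counting error and stay under 2-fold. The direction flips when the libraries are scaled by their total counts, where the log2 ratio of replicate 2 over replicate 1 was 0.54 for Apoc1 and 0.47 for Apoe. That scaling also moved the median of the tested genes to 0.91, so both genes stayed below the median.

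The 2 abundant genes kept almost the same proportion to each other. Apoc1 had 0.545 counts per Apoe count in replicate 1 and 0.573 in replicate 2, a change of 1.05-fold (95% interval 0.979 to 1.13). Per unit length, Apoc1 stood above Apoe in both libraries, with a ratio of TPM of 1.56 in replicate 1 and 1.78 in replicate 2. In the second quantification the ratio was 2.76 and 2.72, so its size depends on the quantification. They are neighbours on chromosome 7 of mm10, both on the minus strand, Apoc1 at chr7:19689481-19692660 and Apoe at chr7:19696109-19699188. Macrophages are among the cells known to make Apoe, so the macrophage list is given beside it. The summed level of its 9 genes was 172 coding TPM in replicate 1 and 182 in replicate 2, and none of 8 tested was 2-fold apart. The part of macrophages in the Apoe level was not tested.

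Apob, the large structural protein of very-low-density lipoproteins and chylomicrons, showed the widest gap of the members with a count in both libraries. It had 970 counts in replicate 1 and 8 in replicate 2, or 27.6 and 0.059 coding TPM. Replicate 1 was 389-fold higher (95% interval 197 to 905), a log2 ratio of -8.35. That interval overlaps those of Apoa1 and Apoh, and in the second quantification the fold of Apoh was larger, 342 beside 237 for Apob. The widest gap is thus not resolved among these genes. Apoa1, the main protein of high-density lipoprotein, had 377 and 5 counts, or 121 and 0.503 coding TPM. It was 242-fold higher in replicate 1 (103 to 750), a log2 ratio of -7.54. The deeper library thus held far fewer reads of both genes than the shallower one.

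Apoh, known as beta-2-glycoprotein I, a phospholipid-binding plasma protein, was read 96 times in replicate 1 and 1 time in replicate 2. The fold of 308 has a 95% interval of 54.0 to 12303, since a single count sets the lower level. Apoa2, the next most abundant protein of high-density lipoprotein after Apoa1, had 144 and 8 counts, or 107 and 2.04 coding TPM. Replicate 1 was 57.8-fold higher (28.6 to 136). Apoc3, an inhibitor of triglyceride clearance, had 45 and 8 counts, or 33.4 and 2.16 coding TPM. It was 18.1-fold higher in replicate 1 (8.43 to 44.4). For Apoh, Apoa2 and Apoc3 the counting intervals of the levels in the libraries did not overlap. The same held for Apoc1 and Apoe, so it does not set these genes apart. Its share over all genes was not taken.

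The remaining low members were near the limit of detection. Apom, a carrier of sphingosine-1-phosphate in high-density lipoprotein, had 9 counts in replicate 1 and 1 in replicate 2, or 2.90 and 0.089 coding TPM. Apoa4, a protein of chylomicrons, had 6 counts in replicate 1 and 0 in replicate 2. A count of 0 allows up to 3 counts, or 0.164 coding TPM, in that library. By that floor of 3 counts, Apoa4 in replicate 1 was 6.42-fold higher. The lower bound of the fold for counting error was smaller, 3.78. These values rest on fewer than 10 counts per library.

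Apod differed from the rest. It is a lipocalin, unrelated in sequence to most apolipoproteins and made in many tissues. Its counts were 16 and 62, which correspond to 16 and 19.3 after scaling replicate 2 to replicate 1. Replicate 2 was 1.21-fold higher, with a 95% interval of 0.688 to 2.24 that includes 1. Its TPM was 0.70 in replicate 1 and 2.50 in replicate 2, a larger gap than the counts give. In the first transcript table its retained-intron transcript Apod-201 held 12.7% of the gene's abundance in replicate 1 and 49.0% in replicate 2. The second table, from another quantification, put 0% on it in both libraries and the largest share on Apod-202, 44.3% and 80.8%. There Apod stood at 2.05 and 3.06 TPM, at 1 TPM or more in both libraries. Whether Apod belongs to replicate 2 only or to both thus depends on the quantification.

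Among all tested genes, 106 (0.918%) were lower in replicate 2 by 2-fold or more, and 45 (0.39%) were higher by as much. Of the 4 members that passed this minimum, Apoa1 and Apob were lower, Apoc1 and Apoe were within 2-fold, and none was higher. Scaling by the spike-ins gave 85 lower of 164 genes apart, and scaling by total counts 36 lower of 4083. Apoa1 and Apob were lower under both. With a minimum of 10, 5 of 8 members were lower, beside 2.83% of 16872 genes. A 16-fold threshold, chosen after the values were seen, left 19 genes (0.165%) lower in replicate 2 among tested genes. Apoa1 and Apob were 2 of these 19, and 9 others were on the hepatocyte list. Members passed a minimum count mainly through replicate 1, so the counts of those that passed describe these libraries and support nothing further.

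The order of levels within the family changed between the libraries. In replicate 1 it ran Apoc1, Apoe, Apoa1, Apoa2, Apoc3, Apob, Apoh, Apod, Apom and Apoa4. The intervals of Apoa1 and Apoa2 overlapped there, as did those of Apoc3, Apob and Apoh in sequence, and those of Apod, Apom and Apoa4 in sequence. In replicate 2 the order was Apoc1, Apoe, Apod, Apoc3 and Apoa2, with Apoa1, Apoh, Apom, Apob and Apoa4 below them. The intervals of each pair of neighbours from Apoc3 downward overlapped in replicate 2. The places of the low genes in that library are thus not resolved at this depth. Apoc1, Apoe and Apod were each separated from the next gene.

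The hepatocyte list, 26 genes of plasma proteins and liver enzymes, was lower in replicate 2 over most of its members. Of these, 19 were at 1 TPM or more in replicate 1 only, 6 in both and 1 in neither. Of 14 tested, 11 were lower in replicate 2 and none higher, and the median log2 ratio of the whole list was -6.35, beside 0.03 over all tested genes. The summed level was 2363 coding TPM in replicate 1 and 530 in replicate 2. Alb, serum albumin, had 4477 and 73 counts, or 683 and 10.3 coding TPM, and its scaled counts were 197-fold higher in replicate 1 (156 to 252). The gap in coding TPM is smaller, and in replicate 2 the first transcript table put 74.3% of the abundance on the short transcript Alb-202. The second table put all of it on Alb-201, at 162 TPM in replicate 1 and 1.89 in replicate 2. Ahsg, the plasma protein fetuin-A, was at 134 and 1.60 coding TPM. Of the list, Serpina1c, Gc, Tat, Plg and Mup20 were at 0 counts in replicate 2. These were named because they were at 0, after the values were seen. Mup20 had only 2 counts in replicate 1, and the second quantification gave Gc 4, Plg 3 and Tat 1 count in replicate 2.

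The list was not uniform. C3, the central complement protein, was at 463 coding TPM in replicate 1 and 273 in replicate 2. Hp, haptoglobin, was at 106 and 76.1, and Cyp2e1, a cytochrome P450 of xenobiotic metabolism, at 198 and 113. These 3 genes were less than 2-fold apart and make up most of what the list still held in replicate 2. Trf, transferrin, lay between, at 177 and 42.1 coding TPM, 3.78-fold higher in replicate 1 (3.42 to 4.19). Most genes of the hepatocyte list were thus lower in replicate 2, as were Apoa1, Apoa2, Apob, Apoc3 and Apoh, but not all by a like amount. The part of liver RNA in the levels of these members was not tested. In whole tissue, fewer cells of a type and less RNA per cell cannot be told apart.

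**Figure D2:**
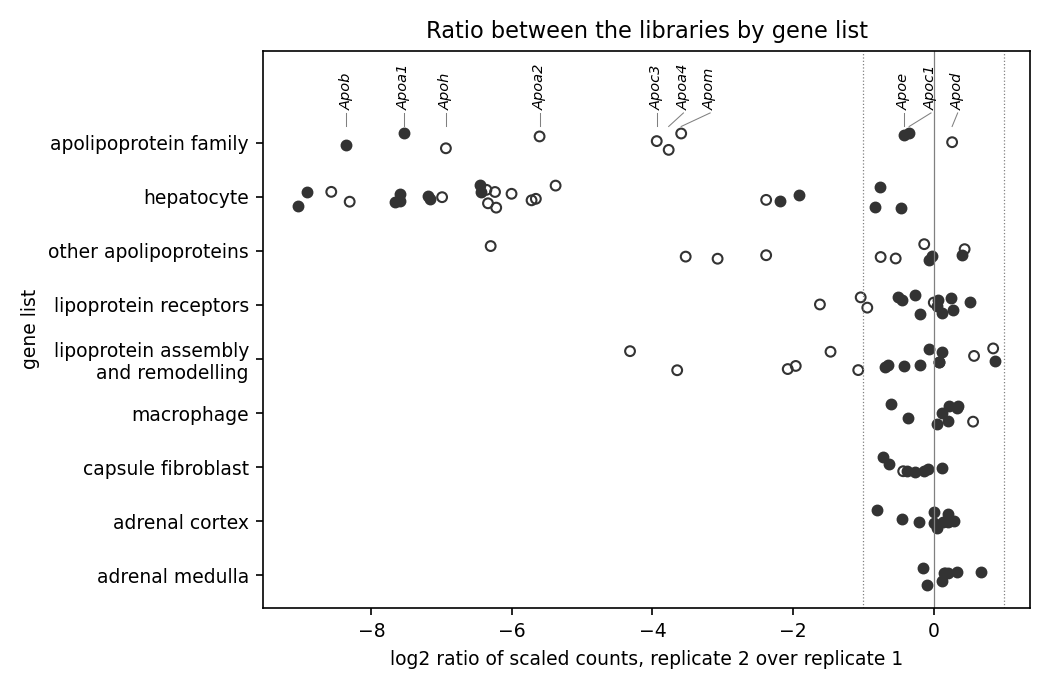
Log2 ratio of scaled counts, replicate 2 over replicate 1, for each gene with a count in either library, by list, with filled points for tested genes (counts averaging 100 or more), open points for the rest and dotted lines at 2-fold. The family spreads from -8.35 (Apob) to 0.26 (Apod), while the adrenal cortex list stays between -0.80 and 0.29.

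Other tissues and cell types that could have been in the sample gave different values. The intestinal enterocyte list (8 genes) had none at 1 TPM or more in either library, with summed levels of 3.53 and 2.16 coding TPM. The kidney tubule list (8 genes) had none either, at 1.79 and 1.06. Enterocyte markers Alpi, Cdx1 and Cdx2 were at 0 in both libraries, named after their values were seen. The capsule fibroblast list had a median log2 ratio of -0.32, with none of 7 tested 2-fold apart. The adipocyte list had the same median, -0.32, with 1 of 7 tested 2-fold higher in replicate 2. Endothelial genes had a median of 0.11 and Schwann or sustentacular genes of 0.25. The adrenal cortex and medulla lists had medians of 0.05 and 0.15.

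The members that were low in replicate 2 did not all move as far as Alb. Each member's count was divided by the Alb count in the same library, and the change of that ratio was given an exact conditional 95% interval, a comparison added after the data were seen. Apoa1 had 0.0842 counts per Alb count in replicate 1 and 0.0685 in replicate 2, a change of 0.813-fold (0.255 to 2.00). Apob had 0.217 and 0.110, a change of 0.506-fold (0.210 to 1.05). For Apoh the change was 0.639-fold (0.0158 to 3.76). The intervals of these 3 genes include 1.

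Apoc3 and Apoa2 had more reads relative to Alb in replicate 2, beyond counting error for Apoc3 in both quantifications and for Apoa2 in the first. Apoa2 had 0.0322 counts per Alb count in replicate 1 and 0.110 in replicate 2, a change of 3.41-fold (1.39 to 7.25). Apoc3 had 0.0101 and 0.110, a change of 10.9-fold (4.28 to 24.4). Set against Apoa1 in place of Alb, Apoc3 changed 13.2-fold (3.64 to 53.8) and Apoa2 4.18-fold (1.18 to 16.5). Apob against Apoa1 changed 0.622-fold (0.178 to 2.43). In the second table the change against Alb was 9.38-fold for Apoc3 (3.46 to 21.9) and 2.68-fold for Apoa2, whose interval of 0.830 to 6.73 includes 1. Each of Apoa2, Apob and Apoc3 rests on 8 counts in replicate 2 of the gene table. All 8 of the Apoc3 counts there were assigned to Apoc3-205, annotated as a processed transcript, while in replicate 1 the coding transcript Apoc3-201 held 62.1% of the gene's abundance. In the second table the 7 counts of Apoc3 in replicate 2 were divided between that transcript and a coding one. That table also put 54.7% of Apoc3 on Apoc3-205 in replicate 1 and 16.7% on Apoc3-201, so no change of transcript between the libraries is given.

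The same counts can be read as a difference of log2 ratios for all members, which carries the prior of 1 count. For Apoa1 and Apoh the prior turned the sign, since their counts per Alb count were lower in replicate 2, with intervals that include 1. Apoa1, Apoh and Apob were within 1 of the Alb value, at 0.06, 0.65 and -0.76, and 7 of the 25 other hepatocyte genes were this close. Apoa2 stood 1.99 above Alb and Apoc3 3.65 above. Apoe, Apoc1 and Apod stood 7.18, 7.25 and 7.86 above. For Apoa4 and Apom the few counts and the prior of 1 count draw the ratio toward 0, so their values of 3.82 and 4.00 are not placed.

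**Figure D3:**
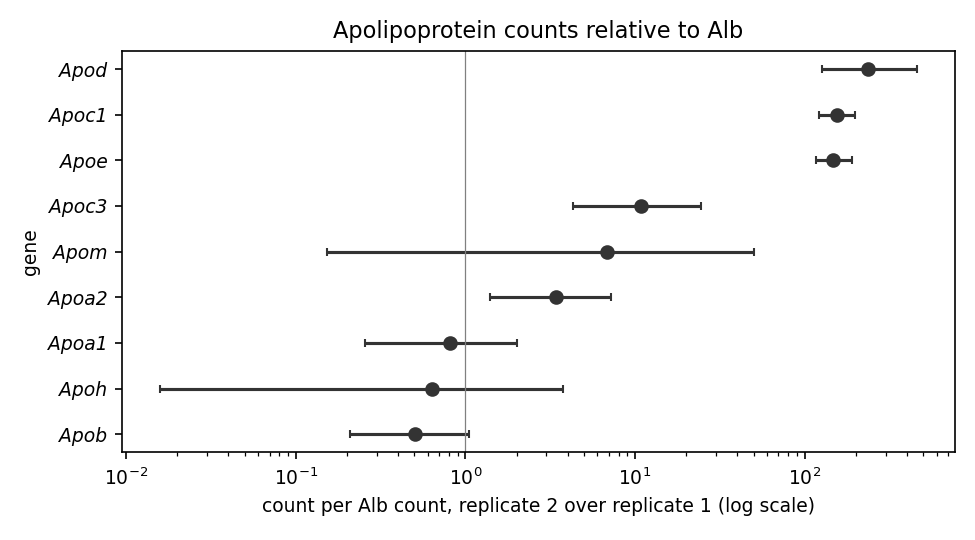
Change in each gene's count per Alb count, replicate 2 over replicate 1 (log axis), with 95% conditional intervals and a line at 1. Apoa4 (0 counts in replicate 2) is not drawn. Apob, Apoh and Apoa1 cross the line, Apoa2 and Apoc3 lie above it at 3.41 and 10.9 in the gene table, and Apoe, Apoc1 and Apod lie above 100.

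Apoa1, Apoc3 and Apoa4 lie together on chromosome 9, with Apoa5, an activator of triglyceride clearance, beside them. In mm10 Apoa1 is at chr9:46228580-46230466 (plus strand), Apoc3 at chr9:46232933-46235636 (minus) and Apoa4 at chr9:46240696-46243459 (plus). Apoa5 had 37 counts in replicate 1 and 0 in replicate 2. By the floor of 3 counts Apoa5 was 39.6-fold higher in replicate 1, with a lower bound of 30.6 for counting error. All 4 genes of this cluster were thus low or at 0 in replicate 2. The genes flanking the cluster were not. Sik3, a protein kinase gene 4386 bases before Apoa1, had 944 and 3042 counts, a log2 ratio of 0.01. Zpr1, which follows Apoa5, had a log2 ratio of -0.54. Zpr1, and Gm44805 below, were named for their place in the clusters after the values were seen.

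The chromosome 7 cluster had a different pattern within itself. Apoc4 had 136 and 429 counts, or 88.3 and 88.5 coding TPM, with a log2 ratio of -0.03. Apoc2, the cofactor of lipoprotein lipase, had 5.05 and 0 counts. Both overlap Gm44805, an annotated read-through gene across them with 9 and 6.03 counts, so how their reads were divided is uncertain. Tomm40, on the other side of Apoe, had 494 and 1770 counts and a log2 ratio of 0.16. Apoc4, Apoc1, Apoe and Tomm40 were thus present in both libraries at less than 2-fold apart.

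**Figure D4:**
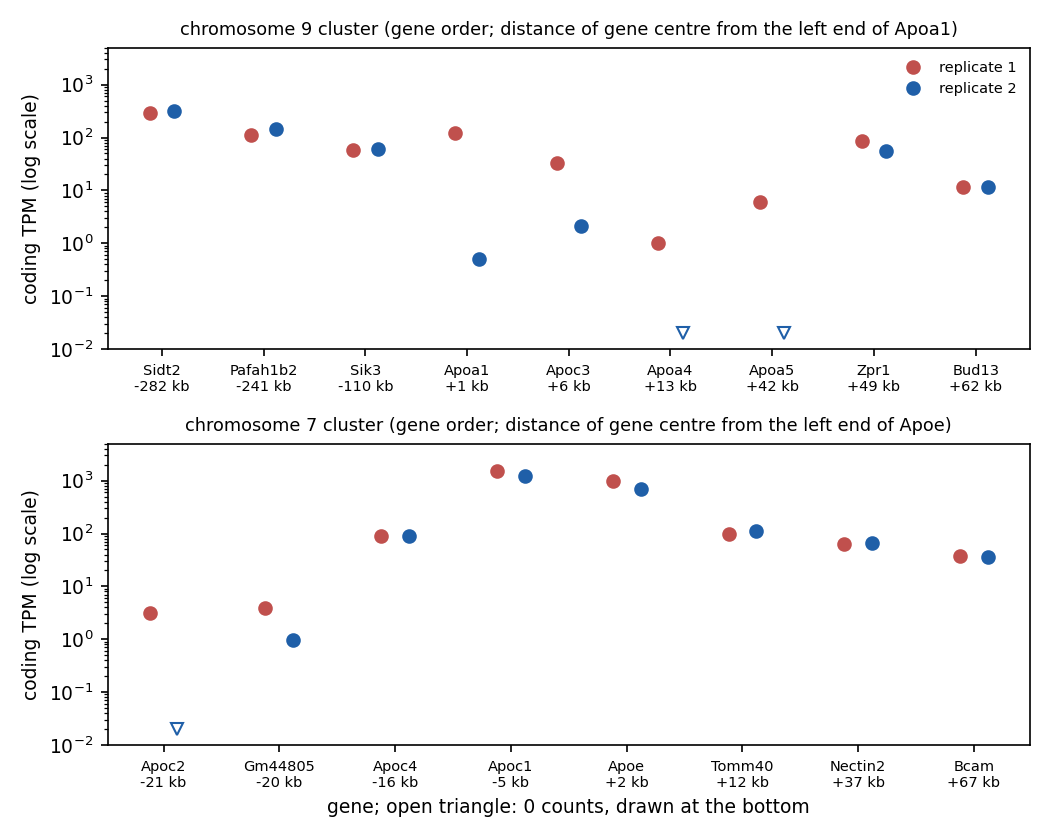
Level in coding TPM (log axis) of the genes around Apoa1 (upper panel) and Apoe (lower panel), in chromosome order with the distance of each gene's centre, in replicate 1 and replicate 2, and an open triangle at the bottom where the count was 0. Apoa1, Apoc3, Apoa4 and Apoa5 separate between libraries while Sik3 and Zpr1 do not, and Apoc4, Apoc1 and Apoe stay together.

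Members that lie apart from the clusters were set beside their neighbours too. Apoa2 (chr1:171225054-171226379, plus) lies between Tomm40l, with a log2 ratio of 0.09, and Fcer1g, at -0.24. Apob (chr12:7977648-8016835, plus) has Ldah after it, at -0.08. Apom (chr17:35128997-35132050, minus) ends 142 bases from D17H6S53E, which had 141 and 470 counts and a log2 ratio of 0.05, while Apom itself rests on 9 and 1 counts. Apod (chr16:31296192-31314808, minus) lies after Ppp1r2, at -0.02, and neither was 2-fold apart. Apoh (chr11:108343354-108414396, plus) overlaps Prkca on the opposite strand over 575 bases. Prkca, named for this overlap, had 112 and 306 counts. The sources used here do not say whether counting used the strand, so reads from the shared bases cannot be told apart.

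Promoter sequences were compared because Apob and Apoa1 stood far lower in replicate 2 while Apoe was within 2-fold. RefSeq windows on GRCm38.p6 were found for 8 of the 10 members, 11 windows in all. Shown are the 200 bases before the RefSeq start, 5′ to 3′ on the gene's strand, with motif matches in capitals. They are given for Apob (chr12:7977477-7977676, plus), Apoa1 (chr9:46228430-46228629, plus) and Apoe (chr7:19699189-19699388, minus). For Apob and Apoa1 this start lies inside the annotated gene, which begins at 7977648 and 46228580, so the last bases shown are within the gene.
Apob: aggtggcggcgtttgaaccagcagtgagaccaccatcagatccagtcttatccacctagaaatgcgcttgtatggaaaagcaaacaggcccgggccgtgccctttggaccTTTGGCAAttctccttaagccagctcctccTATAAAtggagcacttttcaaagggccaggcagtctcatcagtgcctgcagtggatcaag
Apoa1: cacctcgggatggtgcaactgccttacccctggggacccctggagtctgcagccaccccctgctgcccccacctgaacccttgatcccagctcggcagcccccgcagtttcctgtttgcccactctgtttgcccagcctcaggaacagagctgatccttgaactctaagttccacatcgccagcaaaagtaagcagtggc
Apoe: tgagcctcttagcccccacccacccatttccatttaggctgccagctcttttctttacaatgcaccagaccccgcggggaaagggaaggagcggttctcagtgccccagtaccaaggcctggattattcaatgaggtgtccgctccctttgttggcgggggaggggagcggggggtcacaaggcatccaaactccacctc
The motifs were searched on both strands in whole windows, from 250 bases before to 50 after the start. The TATA box letters, TATAAA, were held by 13.6% of all 32851 windows of the same length. Those of steroidogenic factor 1, a regulator of steroid-producing cells, were CAAGGTCA (1.56%). Letters for HNF4, a liver and gut factor, were CAAAGTCCA (0.47%) and CAAAGGTCA (0.48%). For HNF1, another liver factor, GTTAAT was searched (7.1%). The C/EBP letters were TTGCNNAA (10.8%). SP1, a general factor, was searched as CCGCCC (35.7%).

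The Apob window held TATAAA with its first base at -60 and a C/EBP match, TTTGGCAA, at -90, both counted from the RefSeq start. Those are the capitals above. The Apoa1 and Apoe windows shown held none of the letters searched. Apoe has 2 further RefSeq starts inside the gene, of which 1 held TATAAA at -96 overlapping its reverse complement at -100, and the other the reverse complement of the HNF1 letters at -172. Apoa2 had C/EBP matches at -164 and -140 before an upstream start, and TATAAA at -212 before the start that matches the annotated gene. The windows of Apoa4, Apod, Apoh and Apom held none. No member window held the letters searched for HNF4, steroidogenic factor 1 or SP1. A match here is a description of letters, and the absence of one says nothing about a factor.

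The transcripts that carried each gene depended on the quantification more than the gene counts did. Of 9 members with a count in both libraries, 6 had the same leading transcript in both libraries in the first table. The 2 tables named the same leading transcript in 10 of the 19 pairs of member and library with a count. For Apoe, transcript Apoe-209 held 71.2% of the abundance in replicate 1 and 78.6% in replicate 2 in the first table and 0 in the second. The second table put 48.6% on Apoe-201 in replicate 1 and 94.4% on Apoe-205 in replicate 2. Gene totals moved little, with 3199 counts in replicate 1 in the first table and 3347 in the second. For Apoc1 the leading transcript was Apoc1-201 in the first table (96.9% and 97.0%) and Apoc1-202 in the second (44.4% and 60.2%). No isoform difference between the libraries is therefore given for either gene.

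Other apolipoproteins gave a mixed picture. Of 13 listed, 4 were at 1 TPM or more in both libraries, 1 in replicate 1 only and 8 in neither, with a median log2 ratio of -0.13. None of the 3 tested was 2-fold apart under TMM or spike-in scaling, and 1 was with total counts. Clu, also called apolipoprotein J, a secreted chaperone, was at 310 and 298 coding TPM. Apol6 was at 9.96 and 11.8, and Apof, a minor lipoprotein component, at 10.2 and 9.49. Clu and Apoc4 thus joined Apoc1 and Apoe among the apolipoprotein genes above 80 coding TPM in both libraries.

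Most receptors of the family's particles were present in both libraries. Of 14 lipoprotein receptor genes, 10 were at 1 TPM or more in both, 1 in replicate 2 only and 3 in neither. None of the 10 tested was 2-fold apart under TMM or spike-in scaling, and 4 were with total counts. The median log2 ratio of the list was -0.09. Scarb1, the receptor for selective uptake of cholesterol ester from high-density lipoprotein, was at 2638 coding TPM in replicate 1 and 1935 in replicate 2. Cd36, a fatty acid and lipoprotein receptor, was at 367 and 371. Lrp1, a receptor for Apoe-bearing remnants, was at 200 and 247. The chaperone Lrpap1 was at 107 and 117, and the scavenger receptor Stab1 at 63.2 and 77.4.

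Genes of lipoprotein assembly and remodelling numbered 17, of which 11 were at 1 TPM or more in both libraries, 2 in replicate 1 only and 4 in neither. None of the 9 tested was 2-fold apart under TMM, and 1 was under spike-in or total-count scaling. The list's median log2 ratio was -0.42. Lpl, which releases fatty acids from triglyceride in lipoproteins, was at 522 coding TPM in replicate 1 and 320 in replicate 2. Abca1, which loads cholesterol onto Apoa1, was at 269 and 161. Angptl4, an inhibitor of Lpl, was at 58.6 and 48.7. Lmf1, needed for Lpl maturation, was at 41.6 and 40.4, and Gpihbp1, the endothelial anchor of Lpl, at 36.4 and 40.6. Sort1, a sorting receptor, was at 28.1 and 27.8. Under TMM scaling no tested gene of the receptor list or of this list was 2-fold apart, while Apob and Apoa1 differed by 389-fold and 242-fold.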

How the data were processed

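Total RNA of 2 adrenal gland libraries was analysed. Per the notes deposited beside the files, mm10 and GENCODE M21 were the reference. The program that quantified the reads is not given in these sources. Reads of the CAST parent were thus also assigned on the mm10 reference. The authors deposited expected counts and TPM per gene and per transcript, in 2 transcript quantifications, and, per the file headers, the percent of each gene's abundance on each transcript.

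Expected counts were rounded to whole numbers and scaled with edgeR 4.0.16 in R 4.3.3 by its TMM method, and log2 ratios carry 1 prior count. Intervals of folds are Clopper-Pearson at 95%, and those of levels are exact Poisson. They cover counting error only. Floors are 3 counts. Gene names came from the transcript identifiers. Python 3.11.15 and scipy 1.17.1 were used. The ratios and the intervals of folds were tested on simulated Poisson counts, with folds up to 8 and mean counts of 100 or more. Larger folds, lower counts, intervals of levels and intervals against Alb were not tested in this way.

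Alternatives were scaling by total counts, DESeq2 1.42.0 size factors, spike-ins or coding counts, other priors, thresholds and minimum counts, the second quantification, and each library left out. Members and lists were chosen with earlier results of these data known. Named genes are all members, at most 6 genes of a list with the highest mean coding TPM, Alb, and genes next to a member; some listed genes are not reported here, and exceptions are marked as chosen after their values were seen.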

Additional observations from a re-analysis of the deposited data

How the results depend on the processing

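The number of members at 1 TPM or more in both libraries was 2, and 2 again at 5 TPM. It was 6 at 0.1 TPM, 5 at 1 coding TPM and 5 in the second transcript quantification. The number of tested members 2-fold or more apart was 2, with 5 at a minimum mean count of 10 and 7 with no minimum, and 2 under every other scaling, fold and table tried. Over all genes, 151 were apart in the main setting, 934 with a minimum of 10, 5009 with none, 671 at 1.5-fold, 43 at 4-fold, 24 at 16-fold and 4083 with total counts. Of 7 alternatives for the log2 ratio, only total counts changed a sign, for Apoc1 and Apoe. In the second quantification the change of Apoa2 against Apoa1 was 2.53-fold (0.621 to 9.45), so that its interval includes 1. Total-count scaling put 4 receptor genes, 1 assembly or remodelling gene and 1 other apolipoprotein gene 2-fold apart, and spike-in scaling 1 assembly or remodelling gene, where TMM put none. Levels with 1 library left out are those of each library given in the text. No paired analysis was possible because there is 1 group, so no second group shares its replicate numbers. Depth limits Apoa4, Apom and Apoh, which had 0 or 1 count in replicate 2.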

Other observations

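Several further genes of lipoprotein remodelling, chosen after their values were seen, were lower in replicate 2 with mean counts under 100. Lcat, the plasma enzyme that esterifies cholesterol on high-density lipoprotein, had 33 counts in replicate 1 and 24 in replicate 2 and was 4.42-fold higher in replicate 1 (95% interval 2.53 to 7.81). Angptl8, a secreted regulator of lipoprotein lipase activity, had 45 and 36 counts and was 4.01-fold higher (2.53 to 6.41). Lipc, hepatic lipase, had 9 and 0 counts, 9.64-fold higher with the floor of 3 counts, with a lower 95% bound of 6.34. Rbp4, the plasma carrier of retinol on the hepatocyte list, named in the same way, had 137 and 96 counts and was 4.58-fold higher in replicate 1 (3.51 to 6.01). Abcg1, a cholesterol exporter, went the other way, with 95 and 560 counts and a log2 ratio of 0.87.

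Mttp, which loads lipid onto Apob, had 169 counts in replicate 1 and 476 in replicate 2, a log2 ratio of -0.19. Apobec1, which edits the Apob transcript, had 27 and 130 counts, a log2 ratio of 0.58. Both were thus present in the library that held 8 counts of Apob. They were named for their link to Apob after the values were seen.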
